A study of Mus musculus with 10 samples.

Results

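The solute carrier (Slc) genes encode membrane proteins that move amino acids, sugars, nucleosides, vitamins, metals and other ions across the plasma membrane and the membranes of organelles. Genes were taken by symbol, as those named Slc, a family number, the letter a and a member number. Slc4a1, Slc11a2, Slc25a37, Slc25a38, Slc30a1 and Slc40a1 were left out. Of 314 such genes on the array, 206 were bright enough to be tested, among 12580 tested genes in all. The mean level of a gene over all 10 arrays decided this. For 10 of the 206 that mean was above the filter while the mean of 1 group was not, among them 1 called gene, Slc26a1. Of the 206, 201 were counted as carriers by symbol, among them Slc3a2, which encodes a partner chain of carriers. The other 5 (Slc9a3r1, Slc9a3r2, Slc7a6os, Slc4a1ap and Slc2a4rg-ps) carry a related name but are not transporters, and they are counted here because the rule goes by name.

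RNA came from LSK/CD48- bone marrow cells, which are lineage-negative, positive for Sca-1 and Kit and negative for CD48, a fraction enriched for haematopoietic stem cells. The Mll-deficient group was 5 Mx1-cre;Mll F/F mice, which carry Mll alleles that Cre can delete and a Cre driven by the interferon-responsive Mx1 promoter, active in blood cells and in other tissues. The control group was 5 Mll F/F mice without cre, so effects of cre and of Mll loss cannot be told apart. All mice were 8-week-old females on a B6.SJL-Ptprca Pep3b/BoyJ background. Every mouse in both groups received 3 injections of pI:pC, an interferon inducer, 48 hours apart, at a dose of 50 µg and a further 10 µg for every gram of mouse, and marrow was taken on day 6. Each mouse gave 1 Affymetrix Mouse Genome 430 2.0 array, made from amplified RNA of 1500 to 10000 cells. Values are MAS5 signals in arbitrary units, each array scaled by the authors to the same trimmed mean (150.001). The comparison asked which genes depend on Mll, a histone H3 lysine 4 methyltransferase, in these cells.

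In dividing blood cells, amino acid exchangers supply growth signalling and protein synthesis, monocarboxylate carriers export the lactate made by glycolysis, and folate carriers feed nucleotide synthesis. The Slc25 family sits in the inner mitochondrial membrane and exchanges nucleotides, phosphate and metabolites between matrix and cytosol. Haematopoietic stem cells are known for low mitochondrial activity and low protein synthesis compared with the progenitors they give rise to.

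Of the 206 genes, 10 rose and 2 fell with Mll deficiency at an adjusted p below 0.05 (limma, Benjamini-Hochberg adjustment over all 12580 genes). These are 5.83% of the solute carrier genes, beside 5.52% of all tested genes (4.85% beside 3.76% for higher and 0.971% beside 1.76% for lower). The share called was therefore near that of the whole array, and the results below are those of single genes. Their median difference was 0.02 on the log2(signal + 16) scale, the scale of all differences below, given as Mll-deficient minus control with the standard error (SE). The median over all tested genes was -0.04. The groups of arrays did not overlap for 15 of the 206 genes (7.28%, beside 6.96% of all tested genes), among them 11 of the 12 called. The interval of a single gene's difference reached a median of 0.53 to either side (95%), before adjustment over all genes. The smallest difference that passed was 0.87.

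Quality measures and markers of other cells are given here once. Pairs of arrays correlated at 0.896 to 0.969. Control replicate 5 stood apart from its group (0.926 on average to the 4 others). Its Gapdh and Actb signal also leaned most to the 3' end, with a log2 ratio of 3' to middle probe sets of 5.19. The group means of this measure of RNA quality were 2.95 ± 1.41 for the controls and 3.14 ± 0.60 for the Mll-deficient arrays (SD, n = 5 each). With the ratio as a covariate in the limma fit, 25 solute carrier genes passed, 18 higher and 7 lower, as did 12.9% of all tested genes. These were the 12 called genes and 13 others: Slc12a4, Slc14a1, Slc16a6, Slc20a1, Slc20a2, Slc22a15, Slc25a24, Slc25a27, Slc25a3, Slc25a39, Slc2a3, Slc3a2 and Slc9a3r2. The signal of Mll itself (Kmt2a, brighter probe set) was 260 ± 85.8 without cre and 216 ± 97.2 with it (SD, n = 5 each; adjusted p = 0.736 in limma over all probe sets), and where it lies relative to the deleted part was not analysed here, so it does not check the labels. Kit, a marker of the sorted fraction, was at 126 ± 34.2 in the controls and 72.3 ± 27 with Mll deficiency (SD, n = 5 each). Its difference was -0.73 (adjusted p = 0.249 in limma over all probe sets), and its other probe set was at -0.33. Of 21 tested erythroid markers, 14 passed (beside 5.52% of all tested genes), all higher in Mll-deficient cells, and 20 had a difference above 0. Their summed signal was 8005 to 11720 across the controls and 23304 to 25962 across the Mll-deficient arrays, with the dimmest member, Epb42, down to 0.517 on 1 array. Of 16 tested long-term stem cell markers, 3 passed as lower and 1, Thy1, as higher, again beside 5.52% of all tested genes. Differences were below 0 for 14 of the 16 (median -0.70), and 10 had an unadjusted p below 0.05 (limma). Their summed signals were 2692 to 7747 across the controls and 1339 to 3141 across the Mll-deficient arrays. Of 59 tested markers of granulocytes and monocytes, megakaryocytes, B cells, T and natural killer cells, and stroma and endothelium, 0 passed limma and 11 had an unadjusted p below 0.05, as did 20.7% of all tested genes and 37 of the 206 solute carrier genes. The 11 were 6 of 18 granulocyte and monocyte markers, 4 of 13 megakaryocyte markers and 1 of 9 T and natural killer cell markers. Within these lists, 12 of 13 megakaryocyte markers had differences below 0 (median -0.42) and 8 of 9 T and natural killer cell markers above 0 (median 0.26). Stroma and endothelium had 8 of 10 below 0 (median -0.26). Granulocyte and monocyte markers had 11 above 0 and 7 below (median 0.07), and B cell markers 4 above and 5 below (median -0.003). The part of any of these markers in the solute carrier differences was not tested. In bulk samples, fewer cells of a type and less RNA per cell cannot be told apart.

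The promoters of the called genes, 10 higher and 2 lower, are shown first. RefSeq promoter windows (GRCm38.p6) were found for 157 of the 206 genes and for 11 of the 12 called. Slc7a5 is named only. In each window the 250 bases before the most upstream start of the table were searched on both strands for AGATAA (bound by GATA factors), CACGTG (the E-box bound by Myc, Max, Usf and related factors), CCNCNCCC (the CACCC motif of Klf factors) and TGATGNAA (the amino acid response element of Atf4). Overlapping matches were allowed, as between neighbouring CCNCNCCC matches. CACGTG was present in 4 of the 9 windows of higher genes and 1 of the 2 windows of lower genes, beside 13.4% of the 157 windows and 6.04% of all 27025 windows of this length. CCNCNCCC was in 7 of 9 and 2 of 2, beside 68.8% and 45.6%. AGATAA was in 1 of 9 (Slc26a1) and 1 of 2 (Slc18a2), beside 5.73% and 10.2%. TGATGNAA was in 0 of 9 and 0 of 2, beside 2.55% and 3.53%. A match describes letters in a window and says nothing of binding. The 5 windows with CACGTG are printed 5′ to 3′ on the gene's strand, with matches to any of the 4 motifs in capitals. They lie at chrX:8271131-8271380 (plus strand, Slc38a5), chr3:104638414-104638663 (plus, Slc16a1), chr4:149774268-149774517 (minus, Slc25a33), chr16:17928220-17928469 (minus, Slc25a1) and chr16:45158674-45158923 (minus, Slc35a5). The first 4 belong to genes that were higher and the last to a gene that was lower.
Slc38a5: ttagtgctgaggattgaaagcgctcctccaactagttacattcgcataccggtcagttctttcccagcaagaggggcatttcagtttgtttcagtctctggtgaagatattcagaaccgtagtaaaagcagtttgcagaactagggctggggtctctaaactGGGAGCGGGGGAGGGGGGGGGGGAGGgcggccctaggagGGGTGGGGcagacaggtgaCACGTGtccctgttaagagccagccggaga
Slc16a1: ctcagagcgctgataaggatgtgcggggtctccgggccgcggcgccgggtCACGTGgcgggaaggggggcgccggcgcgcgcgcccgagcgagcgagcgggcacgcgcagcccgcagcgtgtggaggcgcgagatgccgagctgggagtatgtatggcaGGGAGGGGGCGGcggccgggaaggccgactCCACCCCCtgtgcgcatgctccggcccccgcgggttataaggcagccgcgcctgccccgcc
Slc25a33: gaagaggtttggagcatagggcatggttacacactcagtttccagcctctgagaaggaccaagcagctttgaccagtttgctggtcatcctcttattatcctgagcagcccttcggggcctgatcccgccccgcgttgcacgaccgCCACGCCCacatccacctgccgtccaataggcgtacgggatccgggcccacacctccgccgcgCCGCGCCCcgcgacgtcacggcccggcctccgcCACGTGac
Slc25a1: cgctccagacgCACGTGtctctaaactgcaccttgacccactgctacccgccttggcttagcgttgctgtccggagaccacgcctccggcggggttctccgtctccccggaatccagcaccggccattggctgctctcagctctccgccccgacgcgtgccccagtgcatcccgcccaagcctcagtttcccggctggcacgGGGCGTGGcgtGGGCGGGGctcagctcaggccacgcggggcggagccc
Slc35a5: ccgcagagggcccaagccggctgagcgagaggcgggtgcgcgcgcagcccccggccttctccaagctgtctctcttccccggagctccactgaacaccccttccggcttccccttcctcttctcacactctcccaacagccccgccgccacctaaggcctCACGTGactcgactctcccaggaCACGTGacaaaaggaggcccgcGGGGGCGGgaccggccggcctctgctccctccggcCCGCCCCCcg
In Slc38a5 the E-box lies downstream of a G-rich run that holds most of its 9 CCNCNCCC matches, in Slc25a33 it lies at the end of the window next to the start, and Slc35a5 holds 2 E-boxes.

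Carriers of amino acids and peptides formed the largest class, with 40 genes tested. Of these, 2 rose, Slc38a5 and Slc7a5, and 38 did not pass. Counts by class, here and below, stand beside the 5.52% of all tested genes that passed, and no class was tested as a set. The class median was 0.02, with 22 differences above 0 and 18 below.

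Slc38a5, which encodes a sodium-coupled carrier of glutamine and other neutral amino acids (SNAT5), had the largest difference of any solute carrier gene tested. Its signal (probe set 1454622_at) was 91.4, 108, 35.9, 2.46 and 2.02 in control replicates 1 to 5 and 243, 218, 213, 200 and 287 in Mll-deficient replicates 1 to 5. The lowest Mll-deficient array lay above the highest control array, and 2 controls were near the bottom of the scale. The mean signal went from 48.0 ± 49.7 to 232 ± 34.2 (SD, n = 5 each). On the log2 scale Slc38a5 rose by 2.39 ± 0.46 (SE, adjusted p = 0.00749, limma). Because of the dim controls the size depends on the offset added before taking logarithms, at 3.48 with an offset of 1 and 1.51 with 64, and it passed with both. The gene has 1 probe set.

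Slc7a5 encodes LAT1, the light chain of the main exchanger for leucine and other large neutral amino acids. Its signal (1418326_at) was 254, 325, 295, 235 and 447 in the controls and 580, 715, 806, 1153 and 1037 in the Mll-deficient samples, with no overlap. The difference was 1.41 ± 0.24 (SE, adjusted p = 0.00290, limma), from a mean of 311 ± 83.6 to 858 ± 234 (SD, n = 5 each). Its adjusted p was the smallest of the 206 genes. Slc3a2 encodes CD98, the heavy chain that brings LAT1 to the cell surface. It read 598, 950, 579, 727 and 352 across the controls and 1020, 1048, 1497, 727 and 848 across the Mll-deficient arrays. These groups overlapped, and the difference of 0.69 ± 0.26 did not pass (adjusted p = 0.137, limma), with a 95% interval of 0.14 to 1.25. Slc3a2 passed in 1 of 11 fits with other settings, that with the RNA quality covariate (adjusted p = 0.0133, limma). With 1 array left out it passed in 0 of 10 fits.

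Other members of this class in the fixed gene set did not pass. Classes follow family numbers, so Slc16a10, an aromatic amino acid carrier, is counted with its own family below. The neutral amino acid exchangers Slc1a5 (ASCT2) and Slc1a4 (ASCT1) had differences of 0.56 ± 0.28 and 0.53 ± 0.28 (adjusted p = 0.272 and 0.287, limma). The glutamine carriers Slc38a1 and Slc38a2 were at 0.54 ± 0.20 (adjusted p = 0.135) and 0.09 ± 0.21 (adjusted p = 0.868). Slc43a1 (LAT3), a carrier of branched-chain amino acids, was at 0.74 ± 0.29 and its relative Slc43a3 at 0.44 ± 0.22 (adjusted p = 0.156 and 0.276). Slc6a9, a glycine carrier used in haem synthesis, was at 0.14 ± 0.32, and its interval of -0.53 to 0.81 allows a change in either direction. Slc7a11, the cystine exchanger, was too dim to be tested.

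**Figure D1:**
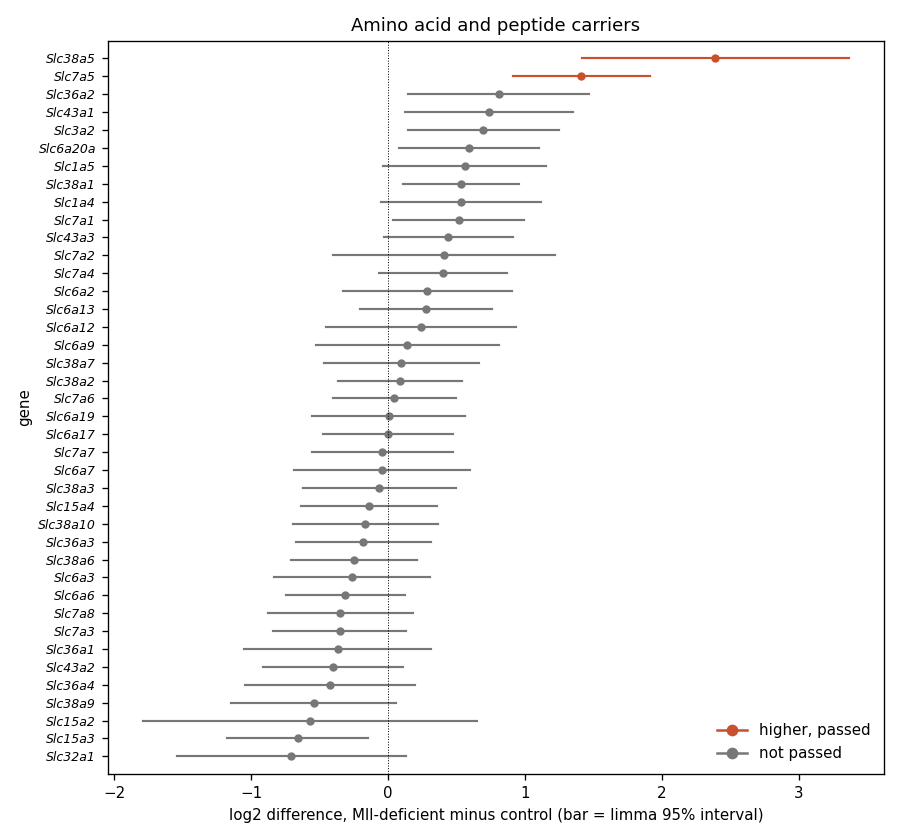
Differences of the 40 tested amino acid and peptide carrier genes (horizontal axis, log2, Mll-deficient minus control) with 95% limma intervals, 1 gene per row. The 2 genes that passed, Slc38a5 at 2.39 and Slc7a5 at 1.41, lie to the right of the other 38.

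Genes that respond to amino acid shortage through the transcription factor Atf4 were compared beside these carriers. Of 24 tested, 3 rose, 1 fell and 20 did not pass, while 5.52% of all tested genes passed. The median was 0.23, with 14 differences above 0 and 10 below. An unadjusted p below 0.05 (limma) was found for 11 of the 24, beside 20.7% of all tested genes. Asns, asparagine synthetase, rose by 1.45 ± 0.25 (adjusted p = 0.00397, limma). Shmt2, the mitochondrial serine hydroxymethyltransferase, rose by 1.27 ± 0.23 (adjusted p = 0.00496) and Gars, glycyl-tRNA synthetase, by 0.71 ± 0.18 (adjusted p = 0.0349). Vldlr, a lipoprotein receptor, fell by 1.40 ± 0.31 (adjusted p = 0.0161). The rest of the 11 are named after their values were seen, and they did not pass. Higher were Phgdh (0.71 ± 0.21, adjusted p = 0.0582, limma), Wars (0.80 ± 0.27, adjusted p = 0.0994), Ddit3 (0.54), Pck2 (0.54) and Eif4ebp1 (0.53). Lower were Chac1 and Cebpb, at -0.75 ± 0.30 and -0.72 ± 0.26 (adjusted p = 0.164 and 0.127, limma). Atf4 itself was at 0.03 ± 0.32.

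Among 11 carriers of monocarboxylates and other organic acids, 2 rose and 9 did not pass, and the median was 0.25. Slc16a1 encodes MCT1, which carries lactate and pyruvate with a proton. Its signal (1415802_at) was 222, 203, 190, 225 and 220 across the controls and 378, 699, 352, 815 and 789 across the Mll-deficient arrays. The controls lay close together, the Mll-deficient arrays were spread, and the groups did not overlap. The difference was 1.37 ± 0.25 (SE, adjusted p = 0.00589, limma), from 212 ± 15.3 to 607 ± 225 (SD, n = 5 each). Its other probe set was below the filter (3.43 and 4.25 on average), and averaging both gave a smaller difference of 0.72 (adjusted p = 0.0274). Slc16a3 (MCT4), the lactate exporter of strongly glycolytic cells, was dim, at 19.4 ± 6.22 and 13.5 ± 8.64 (difference -0.29 ± 0.24, adjusted p = 0.543).

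Slc16a10 belongs to this family by sequence but encodes TAT1, a carrier of aromatic amino acids. It read (1436368_at) 253, 221, 136, 156 and 286 across the controls and 281, 278, 544, 508 and 508 across the Mll-deficient arrays. It was the only called gene whose groups overlapped, since control replicate 5 exceeded Mll-deficient replicates 1 and 2. The difference of 0.95 ± 0.26 passed narrowly (adjusted p = 0.0466, limma). It no longer passed without Mll-deficient replicate 3, 4 or 5 or without control replicate 1, 2, 3 or 4 (differences between 0.82 and 1.02, adjusted p between 0.0560 and 0.125). It also failed in 6 of the 11 fits with other settings. Its other probe sets were dimmer, and those above the filter were at 0.67 and 0.30 (adjusted p = 0.137 and 0.670 over all probe sets).

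**Figure D2:**
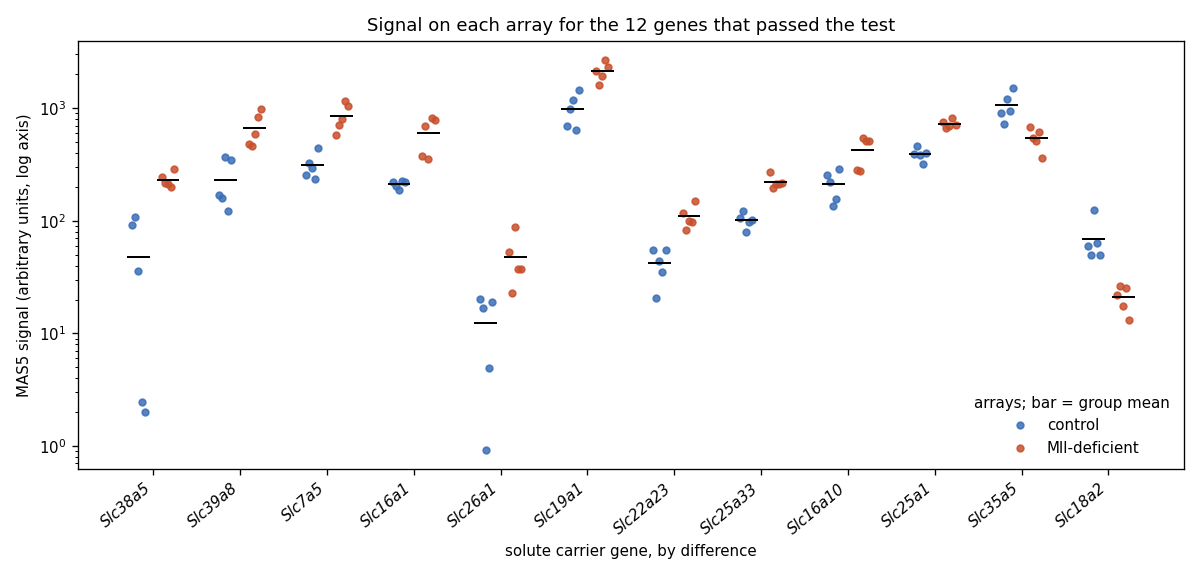
MAS5 signal (vertical log axis, arbitrary units) on each array for the 12 solute carrier genes that passed the test, ordered by their difference, with control arrays in blue, Mll-deficient arrays in orange and a bar at each group mean (n = 5). The groups are separate for every gene shown except Slc16a10.

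Of 12 carriers of nucleosides and vitamins, 1 rose, 11 did not pass and the median was 0.23. Slc19a1 encodes the reduced folate carrier, a main route of folate into cells. Its brightest probe set (1420138_at) read 691, 981, 1182, 640 and 1439 across the controls and 2123, 1595, 1941, 2675 and 2325 across the Mll-deficient arrays. No Mll-deficient array fell into the control range, and the mean signal went from 987 ± 335 to 2132 ± 405 (SD, n = 5 each). Slc19a1 rose by 1.14 ± 0.24 (SE, adjusted p = 0.0125, limma). A further probe set of the gene also passed, at 1.28 ± 0.24 (adjusted p = 0.00816 over all probe sets), while the dimmest, at 0.19 ± 0.32, did not. Slc29a1, the equilibrative nucleoside transporter ENT1, was at 0.63 ± 0.22 and did not pass (adjusted p = 0.113), with mean signals of 29.3 ± 9.66 (control) and 53.7 ± 12.2 (Mll-deficient). Slc46a1, a proton-coupled folate carrier, was too dim to be tested.

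Of 37 mitochondrial carriers of the Slc25 family, 2 rose and 35 did not pass. The median was 0.08, with 23 differences above 0 and 14 below. Slc25a33 encodes a pyrimidine nucleotide carrier. It read (1424211_at) 106, 121, 79.2, 96.8 and 102 across the controls and 269, 196, 213, 211 and 215 across the Mll-deficient arrays, a difference of 1.02 ± 0.20 (SE, adjusted p = 0.00784, limma). Every Mll-deficient array lay above every control array, and the mean went from 101 ± 15.3 to 221 ± 28.1 (SD, n = 5 each). Slc25a1 encodes the citrate carrier, which exports citrate for lipid synthesis. It read (1428190_at) 394, 460, 385, 321 and 400 across the controls and 748, 664, 689, 822 and 716 across the Mll-deficient arrays, again with no overlap. Its difference was 0.87 ± 0.18 (SE, adjusted p = 0.0125, limma). Both genes have 1 probe set.

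The abundant carriers of oxidative phosphorylation were nearer to 0. Slc25a3, the mitochondrial phosphate carrier, read 4126, 4224, 4094, 4217 and 4235 across the controls and 5932, 5661, 5413, 5234 and 6556 across the Mll-deficient arrays. Its groups did not overlap and the controls were almost level, but the difference was 0.46 ± 0.16 and did not pass (adjusted p = 0.114, limma). The dim second probe set was at -0.55, and averaging both gave -0.045. The ADP/ATP carriers Slc25a4 and Slc25a5 were at 0.31 ± 0.24 and 0.22 ± 0.25 (adjusted p = 0.514 and 0.680), with wide control ranges of 1150 to 2969 and 2956 to 6282. Slc25a39, linked to glutathione import and haem synthesis, was at 0.51 ± 0.23 (adjusted p = 0.214; 0.68 and 0.0471 without control replicate 5). A similarly bright probe set of Slc25a39 (1456176_x_at) was at only 0.18 ± 0.26 (adjusted p = 0.770, limma over all probe sets). Its dimmer ones above the filter were at 0.38 and 0.11 and did not pass either. Slc25a28 (mitoferrin 2), an iron carrier, was at 0.14 ± 0.20 (adjusted p = 0.747).

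At the other end of the family, chosen after their values were seen, lay Slc25a24 and Slc25a27. Slc25a24, a calcium-regulated ATP-magnesium/phosphate carrier, read 687, 232, 348, 486 and 416 across the controls and 207, 227, 192, 242 and 214 across the Mll-deficient arrays, where control replicate 2 fell among the Mll-deficient arrays. Its difference of -0.87 ± 0.25 just missed the threshold (adjusted p = 0.0511, limma). Slc25a27 (UCP4) had groups that did not overlap, at 60.2 to 119 across the controls and 25.7 to 56.8 across the Mll-deficient arrays, with a difference of -0.81 ± 0.24 (adjusted p = 0.0603). Both passed with the filter at the 60th percentile and with the RNA quality covariate, and Slc25a24 passed without control replicate 2 (-1.07, adjusted p = 0.0140) and with array weights. With averaged probe sets the differences were -0.40 and -0.23.

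**Figure D3:**
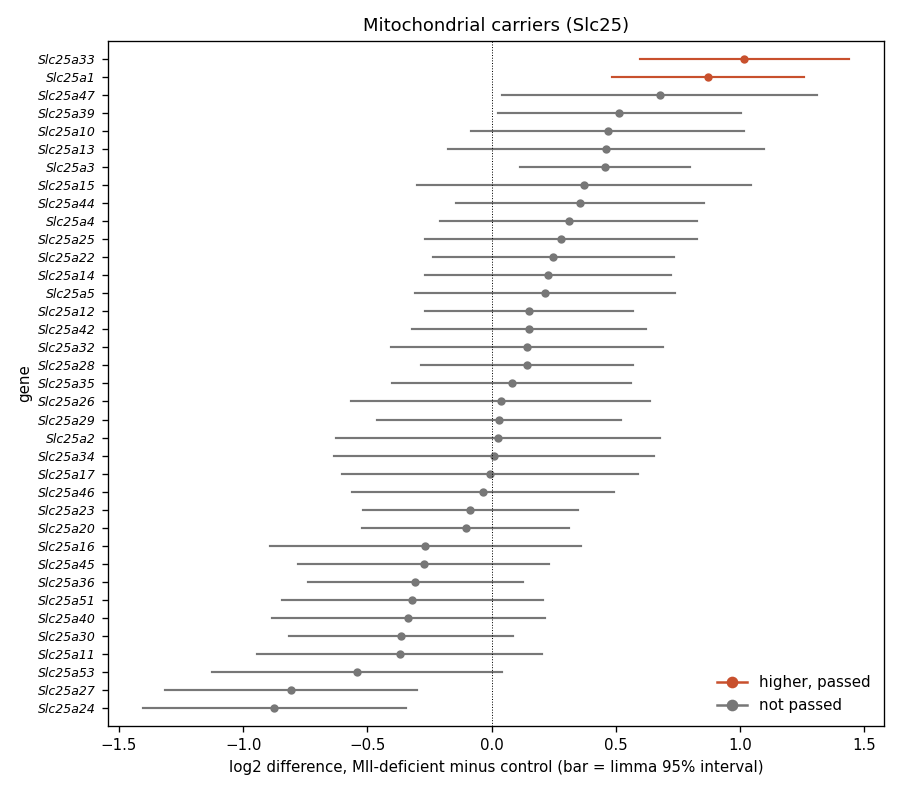
Differences of the 37 tested Slc25 genes (horizontal axis, log2, Mll-deficient minus control) with 95% limma intervals, 1 gene per row. Slc25a33 at 1.02 and Slc25a1 at 0.87 passed, and Slc25a24 at -0.87 lies at the bottom without passing.

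Of 23 carriers of trace metals and haem, 1 rose and 22 did not pass, with a median of 0.05. Slc39a8 encodes ZIP8, an importer of zinc and manganese. Its signal (1416832_at) was 168, 160, 365, 121 and 348 across the controls and 484, 463, 594, 837 and 978 across the Mll-deficient arrays. The controls split into a lower 3 and a higher 2, all below the Mll-deficient arrays. The difference was 1.53 ± 0.31 (SE, adjusted p = 0.00955, limma), from 232 ± 115 to 671 ± 227 (SD, n = 5 each). Averaging it with its second probe set, which was below the filter, gave 0.73 (adjusted p = 0.0461). The other zinc importer of the fixed set, Slc39a10, was at 0.16 ± 0.25 (adjusted p = 0.776). Slc48a1, a haem carrier of endosomes, was at 0.37 ± 0.24 (adjusted p = 0.418), and Slc11a1 (NRAMP1), a metal carrier of phagocytes, at -0.50 ± 0.26 (adjusted p = 0.294).

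Of 27 carriers of inorganic ions, including urea, 1 rose and 26 did not pass, with a median of -0.03. Slc26a1 encodes a sulfate and oxalate exchanger. It was dim, and read (1451239_a_at) 20.3, 16.7, 0.926, 4.94 and 19 across the controls and 52.7, 22.7, 87.8, 37 and 37 across the Mll-deficient arrays. The groups were separate but close, with control replicate 1 just below Mll-deficient replicate 2, and the difference was 1.14 ± 0.29 (SE, adjusted p = 0.0325, limma). The gene's other probe set was at 2.89 ± 2.47 and 29.1 ± 6.62 (SD, n = 5 each). Both were below the filter in the controls and above it only in the Mll-deficient group, so the second gives no separate support. The locus overlaps Idua in RefSeq, and signal of that gene cannot be told apart here. The size moved with the offset, at 2.18 with 1 and 0.53 with 64, and the call was lost with offset 1 and with no filter (adjusted p = 0.0612 and 0.0527). It was also lost without Mll-deficient replicate 1, 3 or 5 or control replicate 3 or 4 (differences between 0.95 and 1.19, adjusted p between 0.0612 and 0.0875).

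Among the other ion carriers, Slc12a4 (KCC1), a potassium-chloride cotransporter chosen after its values were seen, lay just outside the threshold. It read 35.2, 21.8, 31.8, 23 and 10.6 across the controls and 59.2, 54.2, 60.9, 39 and 53.1 across the Mll-deficient arrays, without overlap (0.80 ± 0.23, adjusted p = 0.0502, limma). It passed in 5 of 10 fits with other settings, among them quantile normalization (0.88, adjusted p = 0.0375), and in 0 of the 10 with an array left out. Its size was 0.41 with an offset of 64. Slc14a1, the urea transporter of red cells and other tissues, was also without overlap, at 57.2 to 147 across the controls and 154 to 199 across the Mll-deficient arrays (0.78 ± 0.24, adjusted p = 0.0635). It passed in 1 of 10 fits with an array left out, that without control replicate 2 (0.92, adjusted p = 0.0318), and in 2 of 11 with other settings. Its second probe set, as bright in the controls, was at 0.55 ± 0.31 (adjusted p = 0.375, limma over all probe sets). The phosphate carrier Slc20a1 was at 0.50 ± 0.27 (adjusted p = 0.300). Slc12a2 (NKCC1), a sodium-potassium-chloride cotransporter, was at -0.0016 ± 0.24 (adjusted p = 0.998), with a 95% interval of -0.50 to 0.50.

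Of 14 carriers of organic ions and of vesicles, 1 rose, 1 fell and 12 did not pass. The class median was -0.29, the lowest of the 10 classes. Slc18a2 encodes VMAT2, which loads serotonin, histamine and other monoamines into vesicles. It read (1437079_at) 59.3, 49.4, 125, 63.9 and 49.7 across the controls and 22.2, 26.5, 17.6, 25.6 and 13.1 across the Mll-deficient arrays. All controls lay above all Mll-deficient arrays, also without the high control replicate 3. The difference was -1.16 ± 0.25 (SE, adjusted p = 0.0128, limma), from 69.4 ± 31.6 to 21.0 ± 5.63 (SD, n = 5 each), and -0.63 with an offset of 64. Slc22a23 encodes a member of the organic ion family whose substrate is not known. It moved the other way, from 54.8, 20.7, 44.3, 35.1 and 54.7 to 118, 82.6, 100.4, 97.7 and 151, with no overlap (1.14 ± 0.24 SE, adjusted p = 0.0128, limma) and 0.71 with an offset of 64. Slc22a4, the ergothioneine carrier, was at 0.32 ± 0.25 (adjusted p = 0.515). Slc22a15, chosen after its values were seen, was at -1.03 ± 0.32 and did not pass (adjusted p = 0.0764).

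Of 6 carriers of nucleotide sugars and acetyl-CoA, 1 fell and 5 did not pass. Slc35a5 encodes a member of the family that brings nucleotide sugars into the Golgi and endoplasmic reticulum. It read (1419971_s_at, a suffix given to probe sets that can match more than 1 gene) 912, 722, 1211, 942 and 1514 across the controls and 679, 540, 510, 615 and 359 across the Mll-deficient arrays. The groups did not overlap, and the difference was -0.94 ± 0.24 (SE, adjusted p = 0.0292, limma). The gene's other 4 probe sets were at -0.72, -0.42, -0.36 and -0.27, all on the same side, and none of those above the filter passed (adjusted p between 0.123 and 0.622 over all probe sets). The call was lost with averaged probe sets (-0.54, adjusted p = 0.0502) and without Mll-deficient replicate 3 or 5 or control replicate 1, 3 or 4 (differences between -0.98 and -0.80, adjusted p between 0.0545 and 0.0873). The relatives named Slc35b to Slc35g fall outside the naming rule. Of 17 tested relatives, the 2 that passed are named after their values were seen: 1 rose (Slc35g1, 1.08 ± 0.25, adjusted p = 0.0179) and 1 fell (Slc35d2, -0.97 ± 0.24, adjusted p = 0.0257). The other 15 did not pass, while 5.52% of all tested genes passed.

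Among 20 sugar carriers, 0 passed in limma and 2 had an unadjusted p below 0.05, a smaller share than the 20.7% of all tested genes. Slc2a3 (GLUT3), a high-affinity glucose carrier, had the smallest p. It read (1455898_x_at) 3438, 2868, 3201, 3046 and 2654 across the controls and 2749, 1965, 2464, 1819 and 1238 across the Mll-deficient arrays. Only Mll-deficient replicate 1 lay within the control range, and the difference of -0.61 ± 0.22 did not pass (adjusted p = 0.113). A second bright probe set was close to it, at -0.64 ± 0.21 (adjusted p = 0.108 over all probe sets). Slc2a3 passed in 1 of 11 fits with other settings, that with the RNA quality covariate (adjusted p = 0.0436, limma). With 1 array left out it passed in 0 of 10 fits. Slc2a1 (GLUT1), the glucose carrier of many cells, read 248 to 594 across the controls and 226 to 405 across the Mll-deficient arrays, with a difference of -0.22 ± 0.26 and an interval of -0.78 to 0.33. Slc2a8 (GLUT8), an intracellular member chosen after its values were seen, was at 0.67 ± 0.29 (adjusted p = 0.201), and Slc37a4, the glucose-6-phosphate transporter, at 0.16 ± 0.22 (adjusted p = 0.739).

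Of 8 carriers of lipids and choline, 0 passed in limma and 0 had an unadjusted p below 0.05. Slc10a3 had the smallest p of the class (0.45 ± 0.26, adjusted p = 0.354). The fatty acid transport protein Slc27a4 was at -0.53 ± 0.32 (adjusted p = 0.381) and the choline carrier Slc44a1 at 0.12 ± 0.22 (adjusted p = 0.818). Of the 5 non-carriers, Slc9a3r2, a PDZ scaffold protein, was at -0.80 ± 0.25 (adjusted p = 0.0789). Slc66a2, Slc49a4 and Slc66a1 belong to no class used here, and Slc66a2 had the smallest p of them (-0.27 ± 0.21, adjusted p = 0.509).

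**Figure D4:**
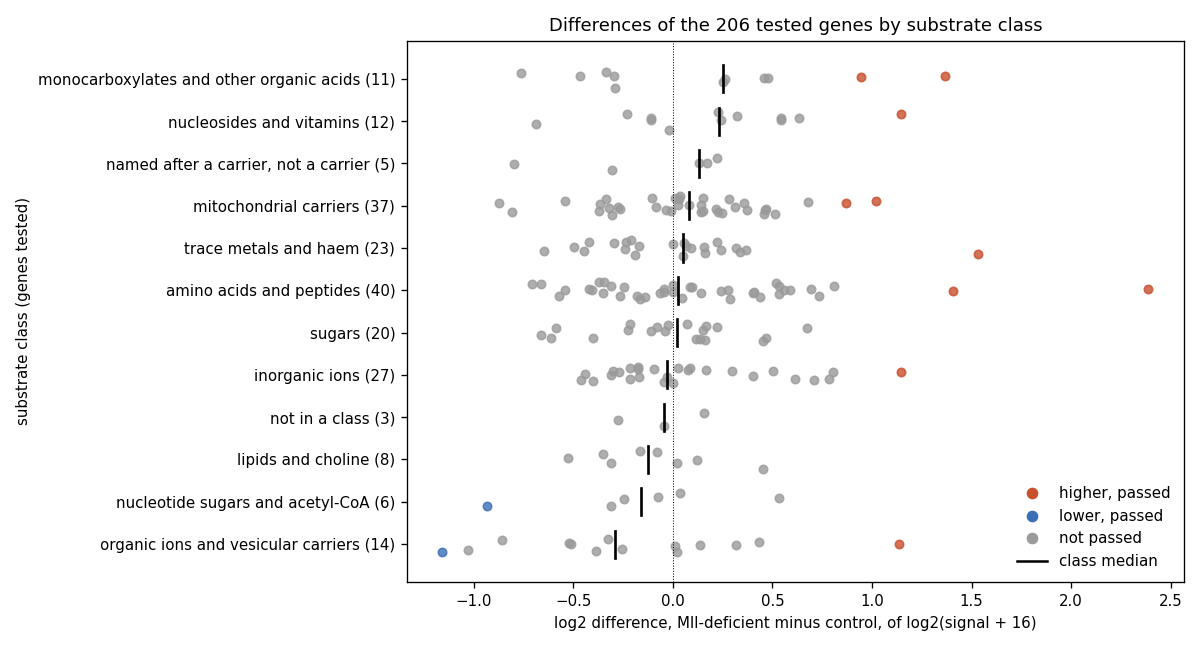
Difference of each of the 206 tested genes (horizontal axis, log2, Mll-deficient minus control) by substrate class (rows, with the number of genes tested), with the class median as a black bar. The called genes, in colour, are spread over 8 classes, and the class medians lie between -0.29 and 0.25.

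The 108 solute carrier genes below the filter were not tested in the main comparison. Without a filter, 2.87% of all 18193 genes passed limma, and 0 of these 108 did (smallest adjusted p = 0.182). An unadjusted p below 0.05 (limma) was found for 4 of the 108, beside 20.7% of the genes tested above the filter. The highest signal of any of the 108 on any array was 51.0. Just inside the filter lay Slc38a3, with a mean log2 value of 4.82, and just outside lay Slc2a10, at 4.81. Slc6a15 of the fixed gene set was among the genes below it, and Slc22a3 and Slc25a21 were not analysed here.

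Other transporters and partners were compared from lists. Of 20 tested partners and accessory proteins, such as the MCT chaperone Bsg and subunits of the sodium pump, 0 passed limma and 4 had an unadjusted p below 0.05, near the 20.7% of all tested genes. Of 31 ABC family genes, taken by name, 5 rose, 1 fell and 25 did not pass, while 5.52% of all tested genes passed. The family includes Abce1, Abcf1, Abcf2 and Abcf3, which are not membrane transporters. Abcf1 was among those that rose (0.69 ± 0.19, adjusted p = 0.0412, limma). An unadjusted p below 0.05 (limma) was found for 10 of the 31. Abcb4, a phospholipid pump, rose by 1.97 ± 0.28 (adjusted p = 9.36e-04, limma) and Abcb6, a porphyrin-linked transporter, by 1.67 ± 0.23 (adjusted p = 7.37e-04), both chosen after their values were seen. Of 6 tested Slco organic anion transporters, 1 fell, Slco4c1 (-1.14 ± 0.23, adjusted p = 0.00912).

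Over the 10 fits that left out 1 array and 11 fits with other settings, 9 of the 12 called genes passed each time: Slc38a5, Slc39a8, Slc7a5, Slc16a1, Slc19a1, Slc22a23, Slc25a33, Slc25a1 and Slc18a2. Their highest adjusted p in any of these fits was 0.0461. The 3 that did not were Slc16a10, Slc26a1 and Slc35a5.

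**Figure D5:**
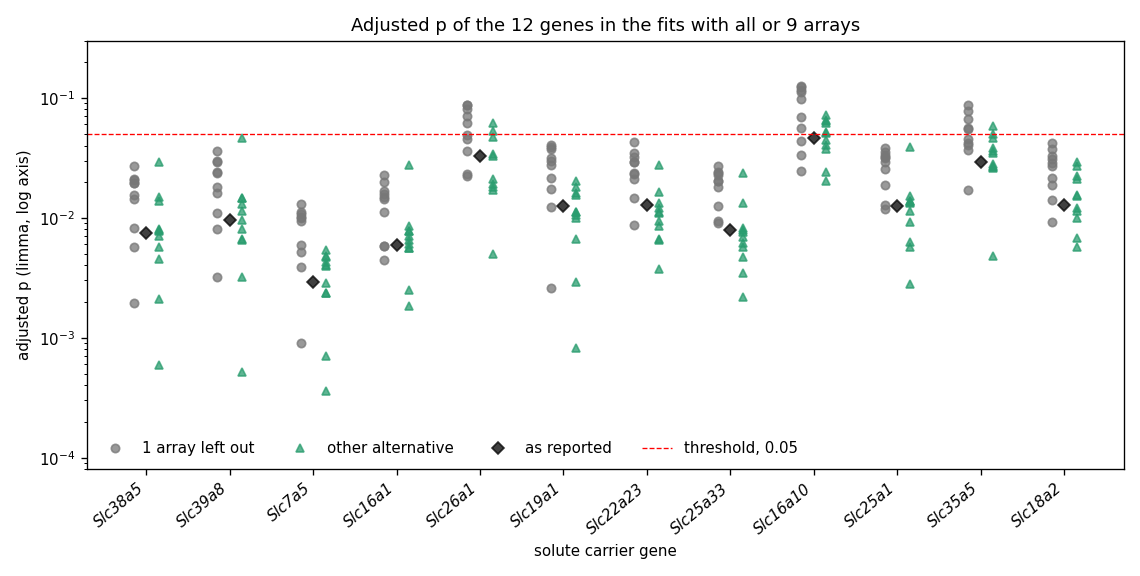
Adjusted p (limma, vertical log axis) of the 12 called genes as reported (diamonds), with 1 array left out (grey circles, 10 fits) and with other settings (green triangles, up to 11 fits). Points of Slc26a1, Slc16a10 and Slc35a5 cross the dashed line at 0.05, and those of the other 9 genes do not.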

How the data were processed

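The authors deposited 1 signal intensity on a linear scale for each probe set and array, from MAS5 5.0 per the submitters' processing notes. The genome build is not given in the sources used here. Of 45101 probe sets (64 of them controls), 34958 had 1 gene symbol, 932 several and 9211 none. Symbols were updated by Entrez identifier through RefSeq (GRCm38.p6), where 34754 matched. Each gene was represented by the single-symbol probe set with the highest mean of log2(signal + 16), and genes above the 40th percentile of all non-control probe sets were tested. The difference between groups was fitted in R 4.3.3 by limma 3.58.1 (lmFit, eBayes with an intensity trend, two-sided, all 10 arrays, adjusted p threshold 0.05). The offset understates changes of dim genes, and scaling removes differences in total RNA. The code was tested on simulated data. Substrate classes followed Slc family numbers.

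Members and lists were chosen with earlier results of these data known. Named genes were those with an adjusted p below 0.05, the smallest p in each class, a fixed set of 39 genes (33 tested) and the other probe sets of called genes. Alternatives covered the offset, normalization, filter, probe set rule, variance prior, array weights, a replicate block, RNA quality, threshold and each array left out.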

Additional observations from a re-analysis of the deposited data

Results flagged for a closer look

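In 4 of 96 groups of 5 arrays checked (48 named genes, 2 groups each), 1 array stood far from the other 4 on the log2 scale, where chance flags about 1 in 20 groups. Slc18a2 read 125 in control replicate 3, against 49.4 to 63.9 in the other controls. Slc25a33 read 269 in Mll-deficient replicate 1, against 196 to 215 in the others. Slc43a1 read 11.8 in control replicate 3, against 38.9 to 55.2. Slc20a1 read 904 in Mll-deficient replicate 2, against 624 to 687.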

How the results depend on the processing

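As reported, 10 solute carrier genes were higher and 2 lower. The RNA quality covariate gave 18 and 7, and an adjusted p threshold of 0.01 gave 5 and 0 (limma; 12 lower genes had an unadjusted p below 0.05). Lower genes numbered 6 at a threshold of 0.1, 4 with the 60th percentile filter, 4 with array weights, 1 with averaged probe sets and 1 with the replicate block. Leaving out 1 array gave 8 to 12 higher and 1 to 3 lower genes, while the share of all tested genes that passed ran from 2.52% to 6.96%. That share was 1.39% at a threshold of 0.01, beside 2.43% of the solute carrier genes. The cause of these changes was not tested. The replicate block ended the calls of Slc16a10 and Slc35a5 (adjusted p = 0.0723 and 0.0577), and same-numbered arrays did not deviate together (correlations of -0.23 to 0.28), so the numbers were not taken as pairs.

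Some differences that were not called changed sign. Slc12a2 went to 0.059 with median centring and 0.016 with quantile normalization, and Slc38a2 to -0.040 with averaged probe sets. Slc25a3 went from 0.46 to -0.045 when its bright probe set was averaged with a dim one. With 1 array left out, Slc12a2 ranged from -0.078 to 0.17, Slc38a2 from -0.030 to 0.20 and Slc6a9 from -0.014 to 0.38. Over 1100 values of named genes under alternatives, 1021 kept direction and side of the threshold, 34 lost a call, 33 gained one and 12 changed sign. The number of arrays and the dim signals limit the precision.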
